A study of Mus musculus with 46 samples.

Results

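The genes described here are 10 genes of glucose uptake and glycolysis: the glucose transporter Slc2a1 and the enzymes Hk2, Pfkl, Pfkp, Aldoa, Tpi1, Gapdh, Pgk1, Pgam1 and Ldha. They were taken by symbol from a table of 23329 mouse gene symbols, and all 10 were found and passed the filter on low counts. The label of the group was met in that each symbol names a transporter or enzyme of the pathway.

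Glycolysis splits glucose into pyruvate in the cytosol and yields ATP without oxygen. Slc2a1 brings glucose into the cell, Hk2 phosphorylates it, and the phosphofructokinase subunits Pfkl (liver type) and Pfkp (platelet type) catalyse the committed step. Aldoa, Tpi1, Gapdh, Pgk1 and Pgam1 carry the sugar through the middle of the pathway, and Ldha reduces pyruvate to lactate. In macrophages the pathway is known to rise with inflammatory activation and under low oxygen, where the factor HIF-1 acts on several of these genes.

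The libraries came from gliomas of nTVA mice with both copies of Ink4a/Arf lost, raised by injecting into the brain DF1 cells, a chicken fibroblast line that sheds the RCAS-PDGFB-HA virus. All groups, vehicle included, therefore carried the same deletion and a tumour driven by PDGFB in cells that express the virus receptor. From each of 23 mice, microglia (MG, the resident brain macrophages) and bone marrow-derived macrophages (BMDM) were sorted as CD45+CD11b+Ly6C-Ly6G- cells, negative for CD49d in MG and positive in BMDM. Mice had received vehicle (4 mice), 5 days of BLZ945, an inhibitor of the CSF1 receptor (4), of radiation, IR (2), or of IR+BLZ945 (3), or carried tumours that recurred after BLZ945 (2), IR (4) or IR+BLZ945 (4). RNA was sequenced in bulk after Smart-Seq amplification, so fewer cells of a type and less RNA per cell cannot be told apart.

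Total counts ran from 3007379 to 16993474 per library, and single members held 8 to 55028 counts in a library. Of 8 microglia markers 7 were higher in vehicle MG than in vehicle BMDM, and of 8 blood-derived macrophage markers 7 were lower. Of all genes tested, 3.84% were higher and 5.3% lower there. In recurrence after BLZ945 the marker numbers were 0 and 3, where 0% of all genes were higher and 0.0818% lower. The microglia markers there still had a mean level of 9.02 log2 CPM in MG and 7.83 in BMDM. Sex-linked genes matched between both libraries of 22 mice and not in the 5-day IR mouse 65698. Doubt attaches to both libraries of that mouse, and to 4 others in which fewer genes were detected: mice 122 and 124 in BMDM, and mice 65971 and 68344 in MG. Counts without these 6 doubted libraries are given where they differ by more than 1.5 times.

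The promoters of 5 members are shown because these genes are the ones the results turn on: Ldha, Pgk1 and Gapdh, which moved together between stages, and Pfkp and Hk2, which differed between MG and BMDM. Sequences are from RefSeq on GRCm38.p6, cover 250 bases before to 50 after a listed start, and are written 5′ to 3′ on the gene's strand. The windows of Ldha, Gapdh and Pfkp lie inside the gene's full span, so these starts are not its outermost end. Capitals mark ACGTG or its reverse complement CACGT, the core of the motif bound by HIF-1 and by E-box factors.
Ldha: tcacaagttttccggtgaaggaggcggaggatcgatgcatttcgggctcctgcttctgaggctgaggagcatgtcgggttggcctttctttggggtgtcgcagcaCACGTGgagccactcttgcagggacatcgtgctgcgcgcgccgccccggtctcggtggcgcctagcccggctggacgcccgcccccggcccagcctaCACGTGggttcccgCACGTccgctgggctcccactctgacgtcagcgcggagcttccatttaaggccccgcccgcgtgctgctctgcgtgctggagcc
Pgk1: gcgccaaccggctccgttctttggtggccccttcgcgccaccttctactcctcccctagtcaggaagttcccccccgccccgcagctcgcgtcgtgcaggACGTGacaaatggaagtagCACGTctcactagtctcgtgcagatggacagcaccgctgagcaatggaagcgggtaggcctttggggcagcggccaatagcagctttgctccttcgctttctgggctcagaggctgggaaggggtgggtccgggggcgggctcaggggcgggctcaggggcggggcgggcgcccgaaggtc
Gapdh: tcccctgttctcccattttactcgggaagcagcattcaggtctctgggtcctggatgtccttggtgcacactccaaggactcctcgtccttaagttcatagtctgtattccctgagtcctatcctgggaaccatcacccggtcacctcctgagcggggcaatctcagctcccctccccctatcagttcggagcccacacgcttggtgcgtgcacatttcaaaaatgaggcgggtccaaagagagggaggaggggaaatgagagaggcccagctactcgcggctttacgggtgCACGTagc
Pfkp: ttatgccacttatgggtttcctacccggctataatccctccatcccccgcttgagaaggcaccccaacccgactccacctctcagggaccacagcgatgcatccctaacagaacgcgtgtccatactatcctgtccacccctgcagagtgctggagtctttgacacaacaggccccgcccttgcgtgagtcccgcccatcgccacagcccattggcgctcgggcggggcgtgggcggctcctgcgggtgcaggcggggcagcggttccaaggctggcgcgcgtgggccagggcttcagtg
Hk2: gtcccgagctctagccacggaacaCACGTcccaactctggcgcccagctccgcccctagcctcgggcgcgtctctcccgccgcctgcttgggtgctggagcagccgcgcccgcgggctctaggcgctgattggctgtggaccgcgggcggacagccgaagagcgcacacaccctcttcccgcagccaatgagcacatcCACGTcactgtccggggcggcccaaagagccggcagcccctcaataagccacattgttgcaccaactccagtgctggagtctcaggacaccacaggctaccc

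The Ldha window lies at chr7:46845554-46845853 on the plus strand, Pgk1 at chrX:106186850-106187149 on the plus strand and Gapdh at chr6:125165724-125166023 on the minus strand. Pfkp lies at chr13:6648722-6649021 and Hk2 at chr6:82774405-82774704, both on the minus strand. The Ldha window shown held 5 matches, counted on both strands, of which 4 are overlapping pairs within the palindrome CACGTG. The other listed Ldha promoter, not shown, held none. Pgk1 and Hk2 held 2 matches each, Gapdh 1 and Pfkp none. Over all members, 7 of 10 genes had a match in at least 1 listed promoter (8 of 13 promoters), against 6447 of 32851 mouse promoters of the same length (19.6%). Tpi1, which moved with Ldha, had none in this window. For the related core GCGTG (reverse complement CACGC), 6 of 10 genes had a match (7 of 13 promoters), against 32.4% of all promoters, and the Pfkp window held 4. The share over all promoters was not matched for GC content, which ran from 52.7% to 67.3% in the members' windows. It therefore cannot tell whether the members hold more matches than promoters of like GC content. A match describes letters in the window and not a bound site.

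In vehicle tumours Aldoa, Ldha, Gapdh and Tpi1 had the highest levels of the 10 genes in both populations, and the other 6 lay below them. Levels between genes are compared as log2 CPM per kilobase of the principal transcript, mean ± SD over 4 mice. In MG, Aldoa (9.89 ± 0.66), Ldha (9.81 ± 0.91), Gapdh (9.23 ± 0.96) and Tpi1 (8.74 ± 0.89) were highest, and neighbours in this order differed by less than their SD. Pfkl followed at 6.70 ± 0.34, and its range (6.27 to 7.09) lay above that of Slc2a1 (5.89 to 6.19). Pgk1 at 6.16 ± 0.84, Pgam1 at 6.14 ± 0.62 and Slc2a1 at 6.05 ± 0.14 lay within their spread. Hk2 stood at 4.61 ± 0.28 and Pfkp was lowest at 1.49 ± 1.64. In BMDM the order ran Ldha (9.14 ± 0.97), Aldoa (9.0 ± 0.34), Gapdh (8.27 ± 1.14), Tpi1 (7.64 ± 0.69), Pfkl (5.66 ± 0.30), Pgam1 (5.53 ± 0.70), Pgk1 (5.45 ± 0.45), Pfkp (4.99 ± 0.57), Slc2a1 (4.97 ± 0.62) and Hk2 (3.44 ± 0.57). Pfkp was last in MG, and in BMDM it was level with Slc2a1 within their spread.

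**Figure D1:**
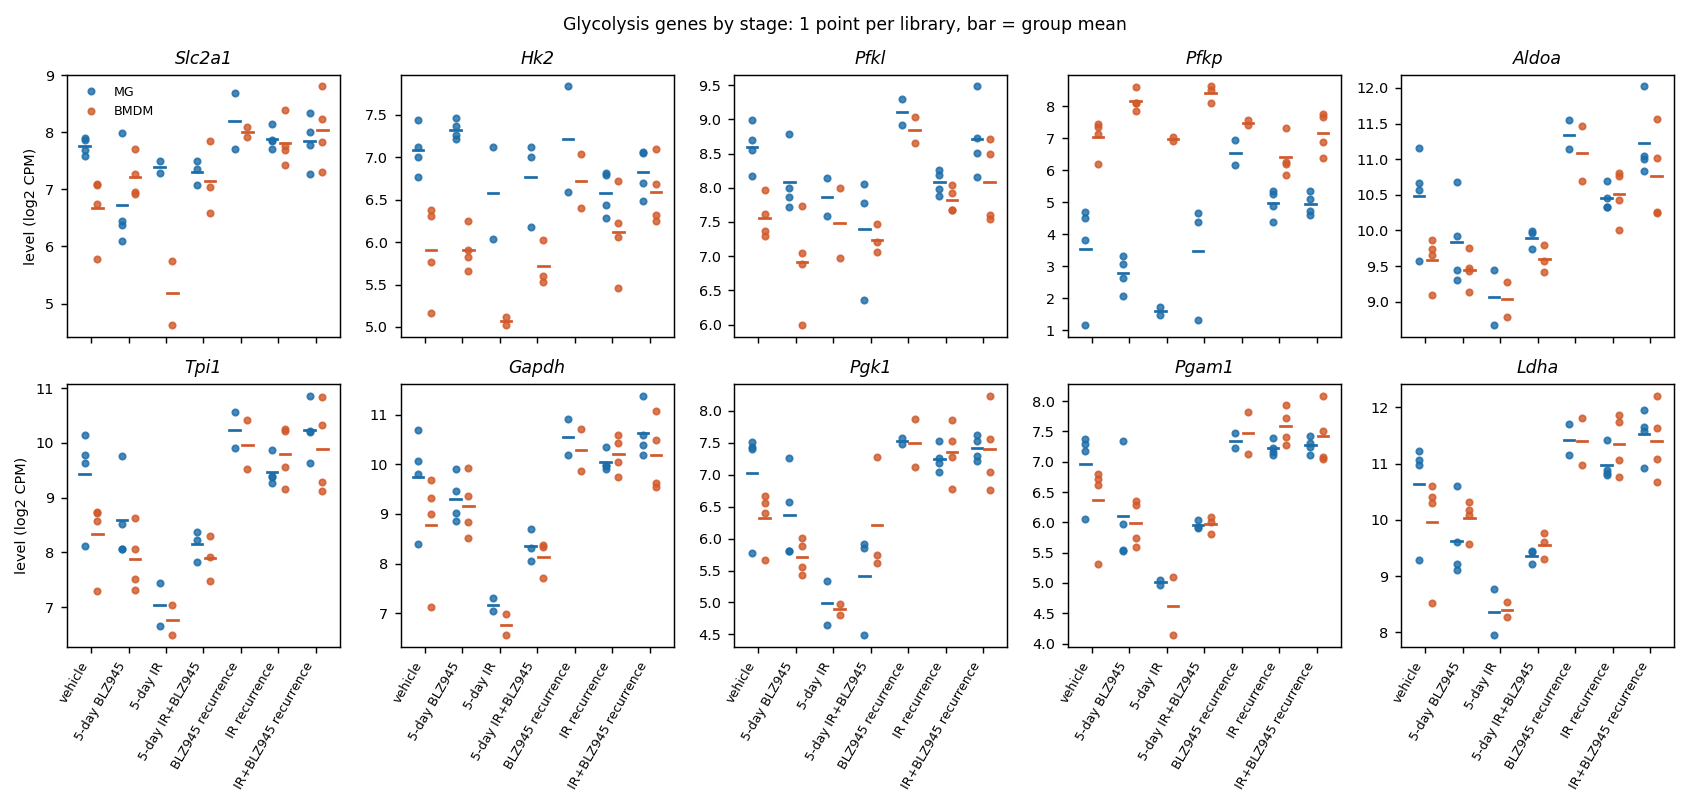
Level of each of the 10 genes (log2 CPM, y axis) in every library by stage, with MG and BMDM side by side; points are libraries and bars are group means. Pfkp lies lower in MG than in BMDM at each stage, and Gapdh, Tpi1 and Ldha have their lowest group means at 5 days of IR.

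Pfkp and Hk2 separated MG from BMDM in opposite directions. Levels from here on are log2 CPM, with libraries in the order of mouse number. In vehicle MG, Pfkp stood at 3.81, 4.52, 4.69 and 1.16 in mice 41, 78, 65966 and 65967. In BMDM of the same mice it stood at 7.15, 7.45, 7.36 and 6.21. Every MG library lay below every BMDM library, with mouse 65967 lowest in both. The log2 fold change of MG against BMDM was -3.10 ± 0.50 (SE; edgeR quasi-likelihood test, Benjamini-Hochberg adjusted p = 2.6e-05). Hk2, in contrast, stood at 7.43, 7.12, 6.76 and 7.0 in vehicle MG and at 6.31, 6.38, 5.76 and 5.16 in BMDM. These groups did not overlap either, and Hk2 was higher in MG by 1.12 ± 0.29 on the log2 scale (adjusted p = 0.00873).

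Pfkp was also lower in MG than in BMDM at each 5-day stage. After 5 days of BLZ945, Pfkp stood at 3.07, 2.09, 3.32 and 2.65 in MG and at 8.11, 8.61, 7.86 and 8.11 in BMDM. After 5 days of IR it stood at 1.73 and 1.49 in MG against 6.93 and 7.05 in BMDM. After IR+BLZ945 it stood at 4.38, 1.34 and 4.68 in MG against 8.51, 8.10 and 8.62 in BMDM. No MG library reached a BMDM library at any of these stages, and in MG after IR+BLZ945 the doubted library of mouse 65971 was the low one. The log2 fold changes were -5.36 ± 0.55 (adjusted p = 2.65e-09), -5.41 ± 0.79 (adjusted p = 3.62e-05) and -4.37 ± 0.61 (adjusted p = 4.95e-06) by edgeR. Hk2 was higher in MG at the same stages, by 1.40 ± 0.29 (adjusted p = 0.000395), 1.61 ± 0.42 (adjusted p = 0.0098) and 1.09 ± 0.34 (adjusted p = 0.0266).

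In recurrence fewer of these differences passed. Pfkp in MG stood at 6.16 and 6.94 after BLZ945, at 4.88, 4.38, 5.35 and 5.26 after IR and at 4.59, 5.34, 4.72 and 5.11 after IR+BLZ945. In BMDM it stood at 7.41 and 7.56, at 7.32, 5.87, 6.27 and 6.21, and at 6.89, 7.75, 6.39 and 7.66. MG still lay below BMDM without overlap at each recurrent stage. The fold changes were -0.88 ± 0.65 after BLZ945 (adjusted p = 1), -1.51 ± 0.47 after IR (adjusted p = 0.0985) and -2.31 ± 0.48 after IR+BLZ945 (adjusted p = 0.00177), so edgeR called the last alone. Within mice, Pfkp was lower in MG in 23 of 23, by 0.62 at the least and 6.76 at the most, and Hk2 was higher in MG in 22 of 23. Hk2 in recurrence differed by 0.59, 0.41 and 0.21, none of which passed. The test of a change in the Pfkp difference from vehicle passed at no 5-day stage (adjusted p = 0.0697, 0.310 and 0.484 by edgeR for BLZ945, IR and IR+BLZ945). A test of 5-day against recurrent differences was not run for Pfkp or Hk2. The summed level of 8 blood-derived macrophage markers in MG moved in part with Pfkp. It ran from 6.46 to 9.42 in vehicle. At 5 days it was 4.43 to 7.80 after BLZ945, 5.29 to 7.38 after IR, where Pfkp had its lowest mean (1.61), and 7.63 to 8.23 after IR+BLZ945. In recurrence after these it was 9.75 to 9.76, 9.14 to 9.35 and 8.46 to 9.41. Over all BMDM libraries it was 9.80 to 11.22. In recurrence after BLZ945 the mean of the 8 genes was 3.81 in MG and 6.58 in BMDM. None of the 8 was at 0 in every library of a stage, and their part in the Pfkp result was not tested. The summed level of 8 neutrophil markers had a median of 9.39 in vehicle BMDM and 1.4 in vehicle MG. In BMDM its medians were 9.51, 2.5 and 10.57 at 5 days of BLZ945, IR and IR+BLZ945. In recurrence after these they were 3.86, 2.55 and 4.67. Libraries of a stage spread from 0.07 to 9.9 at 5 days of BLZ945. For 7 T and NK cell markers the vehicle medians were 5.96 in BMDM and 1.85 in MG. The part of these lists in the Pfkp result was not tested. Pfkp overlaps Pitrm1 on the other strand, which leaves reads of the overlap uncertain, since no source used here states the strand setting.

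**Figure D2:**
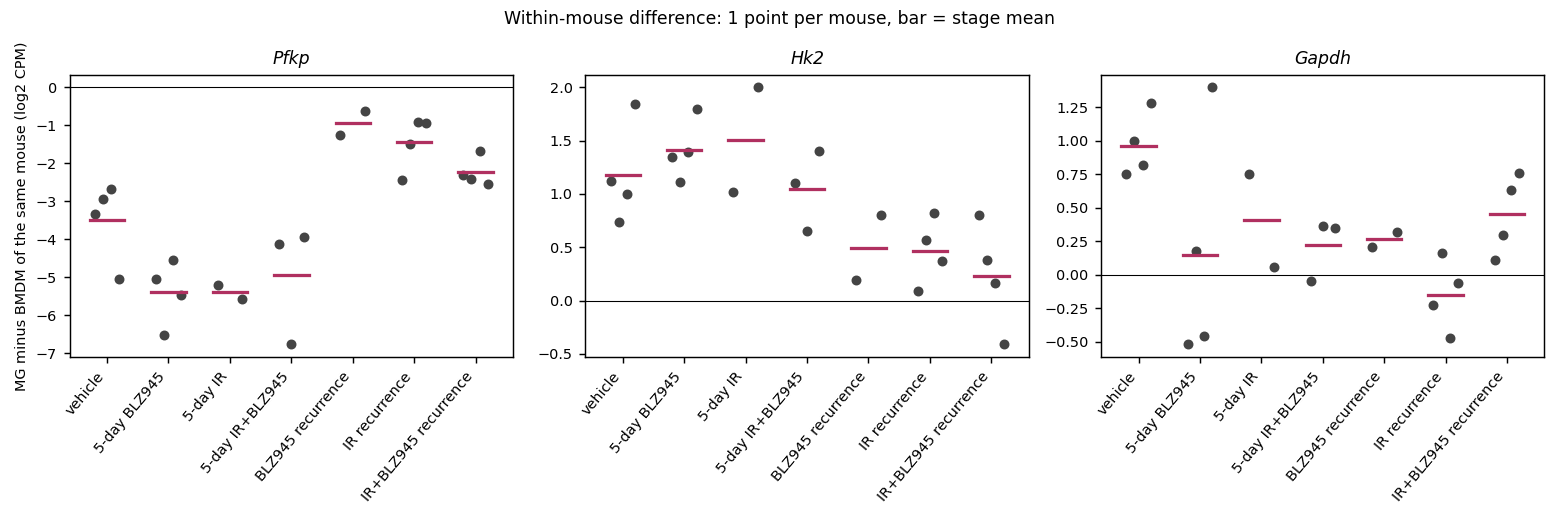
MG minus BMDM difference of the same mouse (log2 CPM, y axis) for Pfkp, Hk2 and Gapdh at the 7 stages; points are mice and bars are stage means. All 23 mice lie below 0 for Pfkp and 22 of 23 lie above 0 for Hk2, while Gapdh lies on both sides.

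Of the 10 members, 3 were higher and 1 lower in vehicle MG than in BMDM, where 9.14% of all 15901 genes passed (3.84% higher, 5.3% lower). Beside Hk2 and Pfkp these were Pfkl (1.05 ± 0.33, adjusted p = 0.0374) and Aldoa (0.97 ± 0.31, adjusted p = 0.0429) by edgeR. With the mouse as a block, 7 were higher and 1 lower, which added Tpi1 (1.10 ± 0.21), Gapdh (0.96 ± 0.23), Slc2a1 (1.08 ± 0.33) and Ldha (0.68 ± 0.21). Leaving out any 1 of the 4 mice left 2 of the 4 calls. At 5 days of BLZ945, 2 were higher and 1 lower (21.8% of genes; 11.6% higher, 10.3% lower), with Pfkl at 1.11 ± 0.33 (adjusted p = 0.0128). At 5 days of IR, 2 were higher and 1 lower (9.09%; 4.96% higher, 4.13% lower), with Slc2a1 at 2.10 ± 0.51 (adjusted p = 0.00644). Slc2a1 stood there at 7.49 and 7.28 in MG and at 4.62 and 5.74 in BMDM. The low BMDM value belongs to the doubted mouse 65698, and without that mouse 1 member was called. At 5 days of IR+BLZ945, 1 was higher and 1 lower (12.8%; 5.68% higher, 7.11% lower), and without mouse 65696 or 67537 1 was called. In recurrence after BLZ945 (0.0818%) and after IR (1.91%) 0 passed by edgeR and by DESeq2, with 0 and 1 at an unadjusted p under 0.05, and after IR+BLZ945 Pfkp alone passed (4.41%).

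At 5 days of IR the middle and last enzymes were low in MG. Gapdh, which oxidises glyceraldehyde phosphate, stood at 7.31 and 7.04 in the IR mice 65698 and 65972 against 10.07, 10.68, 9.81 and 8.40 in vehicle. Ldha stood at 8.77 and 7.95 against 10.97, 11.22, 11.07 and 9.28. Tpi1, which interconverts the triose phosphates, stood at 7.44 and 6.65 against 9.78, 10.15, 9.64 and 8.12. For all of these the groups did not overlap, and the lowest vehicle library was that of mouse 65967. By edgeR, 5 of 10 members were lower and 0 higher, where 1.99% of 14534 genes passed (1.77% lower, 0.22% higher): Gapdh (-2.73 ± 0.50, adjusted p = 0.00504), Tpi1 (-2.46 ± 0.54, adjusted p = 0.019), Ldha (-2.35 ± 0.51, adjusted p = 0.0163), Pgk1 (-2.12 ± 0.50, adjusted p = 0.0257) and Pgam1 (-2.02 ± 0.44, adjusted p = 0.0172). Pgk1 makes the first ATP of the pathway and Pgam1 moves the phosphate on its product. The median over the members was -2.07, against 0.01 over all genes. The summed level of 8 glioma and precursor markers was also lower in these libraries, 3.59 to 4.41 against 5.88 to 6.65 in vehicle, though 0 of the 8 passed alone, and 1 was at 0 in both IR libraries. Their part in the result was not tested.

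Pfkp (-2.42 ± 0.79), Aldoa (-1.44 ± 0.44), Pfkl (-0.70 ± 0.40), Hk2 (-0.40 ± 0.33) and Slc2a1 (-0.34 ± 0.41) did not pass there. The calls rest on few mice. Without IR mouse 65698 or 65972 in turn 0 passed, with the lone library assumed to vary like the other groups, and without vehicle mouse 78 3 passed. Without the doubted libraries 3 passed, and among mice with 5-digit numbers 1 passed (Pgam1), with Gapdh at -2.08.

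After 5 days of IR+BLZ945, 4 of the 5 genes that were low after IR were lower than vehicle as well. The treatments were not tested against each other. Gapdh stood at 8.32, 8.70 and 8.06, and Pgk1 at 5.85, 4.49 and 5.91 against 7.44, 7.40, 7.51 and 5.77 in vehicle. Both overlapped vehicle through mouse 65967. Of 10 members 4 were lower and 0 higher (13.4% of genes; 3.89% lower, 9.55% higher): Pgk1 (-1.53 ± 0.41, adjusted p = 0.0219), Gapdh (-1.45 ± 0.40, adjusted p = 0.0242), Ldha (-1.34 ± 0.41, adjusted p = 0.0366) and Tpi1 (-1.33 ± 0.44, adjusted p = 0.0478) by edgeR. Without vehicle mouse 41 0 passed, without vehicle 78 or 65966 or treated 65696 or 65971 1 passed, without 67537 2 passed, and without the doubted libraries 1 passed. Markers of the choroid plexus, summed over 6 genes, stood at 4.12 to 10.1 in these MG libraries and at 0.77 to 1.52 in vehicle, and their part in the result was not tested.

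After 5 days of BLZ945 alone no member passed in MG (0.303% of genes; 0.206% higher, 0.0963% lower), with 3 at an unadjusted p under 0.05 and 0 by DESeq2. Ldha stood at 9.10, 9.22, 9.60 and 10.61 in mice 122, 123, 124 and 65975, with the last near vehicle. Without mouse 65975 4 members passed. Among the mice with 2- or 3-digit numbers (3 treated, 2 vehicle) 9 of 10 were lower, with Ldha at -1.74 and Tpi1 at -1.71. Among those with 5-digit numbers Tpi1 and Gapdh were at 0.69 and 0.64. That fit set mouse 65975 alone against vehicle mice 65966 and 65967, and mouse 65967 had the lowest vehicle level of both genes. The number styles are not explained by the labels, and what they stand for was not tested.

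In BMDM 1 member passed against vehicle over all 6 treatments. At 5 days of IR, Pgam1 alone was lower (-1.74 ± 0.42, adjusted p = 0.0462, 1.07% of 14568 genes; 0.721% lower, 0.35% higher), at 5.10 and 4.14 against 6.72, 6.79, 6.61 and 5.32. These did not overlap. Gapdh (-2.21 ± 0.59, adjusted p = 0.0655) and Ldha (-1.70 ± 0.50, adjusted p = 0.102) did not pass by edgeR, while DESeq2 called 6 members lower and 1 fit over all libraries 3. Without vehicle mouse 41, 78 or 65966 or IR mouse 65698 0 passed, and without vehicle 65967 5 passed. At 5 days of BLZ945 (5.51%; 1.95% higher, 3.56% lower) and of IR+BLZ945 (0.57%; 0.336% higher, 0.233% lower) 0 passed, with 1 each at an unadjusted p under 0.05. That 1 was Pfkp in both, at 1.11 ± 0.33 (adjusted p = 0.0532) and 1.36 ± 0.35 (adjusted p = 0.0827) by edgeR, called by DESeq2 in both. Pfkp did not overlap vehicle at either stage, and without mouse 65975 1 member passed at 5 days of BLZ945.

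**Figure D3:**
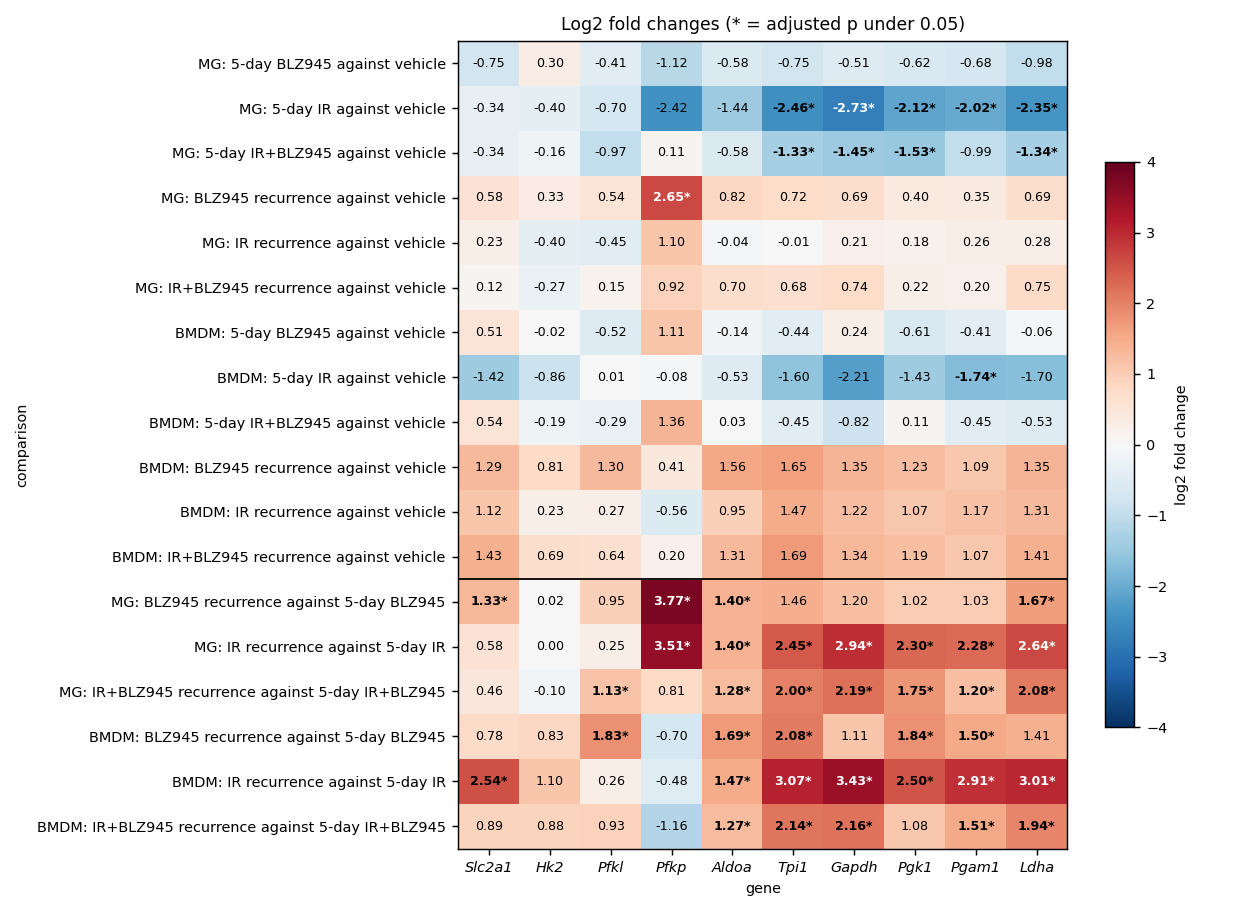
Log2 fold changes (colour and number) of the 10 genes (columns) in 18 comparisons (rows); a star marks an adjusted p under 0.05 by edgeR. The rows below the line compare recurrence with 5 days and hold most of the stars.

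Recurrent tumours showed higher levels than tumours at 5 days of the same treatment, in both populations. After IR in MG, Gapdh stood at 10.35, 9.90, 9.96 and 9.98 in recurrence against 7.31 and 7.04, and Ldha at 11.42, 10.79, 10.89 and 10.83 against 8.77 and 7.95. No recurrent library overlapped a 5-day one for either gene. Of 10 members 7 rose and 0 fell (11.6% of genes; 8.13% higher, 3.43% lower): Pfkp (3.51 ± 0.84, adjusted p = 0.00984), Gapdh (2.94 ± 0.51, adjusted p = 0.00151), Ldha (2.64 ± 0.52, adjusted p = 0.00325), Tpi1 (2.45 ± 0.54), Pgk1 (2.30 ± 0.50), Pgam1 (2.28 ± 0.45) and Aldoa (1.40 ± 0.44) by edgeR. Hk2 (0.00 ± 0.33) and Pfkl (0.25 ± 0.40) did not pass. Without the 5-day mouse 65972 1 passed.

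After IR+BLZ945 in MG 7 rose as well (28.1% of genes; 11.5% higher, 16.6% lower), led by Gapdh (2.19 ± 0.41, adjusted p = 0.00165), Ldha (2.08 ± 0.42, adjusted p = 0.00244) and Tpi1 (2.00 ± 0.45, adjusted p = 0.00419), followed by Pgk1 (1.75 ± 0.42), Aldoa (1.28 ± 0.37), Pgam1 (1.20 ± 0.36) and Pfkl (1.13 ± 0.36). Pfkp was at 0.81 ± 0.62 (adjusted p = 0.343). After BLZ945 in MG 4 rose (8.24%; 6.32% higher, 1.92% lower): Pfkp (3.77 ± 0.67, adjusted p = 0.00156), Ldha (1.67 ± 0.43, adjusted p = 0.0192), Aldoa (1.40 ± 0.39) and Slc2a1 (1.33 ± 0.39) by edgeR. DESeq2 called 7. Without mouse 122, 123 or 124 1 passed, without 65975 9 passed, and without recurrent 67668 or 70696 2 passed.

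In BMDM after IR, Gapdh stood at 10.58, 9.74, 10.43 and 10.04 in recurrence against 6.56 and 6.98, and Slc2a1 at 8.39, 7.43, 7.68 and 7.75 against 4.62 and 5.74. Neither overlapped. Of 10 members 7 rose (12.5%; 7.06% higher, 5.48% lower): Gapdh (3.43 ± 0.63, adjusted p = 0.00185), Tpi1 (3.07 ± 0.58), Ldha (3.01 ± 0.55, adjusted p = 0.00174), Pgam1 (2.91 ± 0.45, adjusted p = 0.000451), Slc2a1 (2.54 ± 0.50), Pgk1 (2.5 ± 0.51) and Aldoa (1.47 ± 0.38) by edgeR. Without the doubted 5-day mouse 65698 4 passed. Pfkp, in contrast, was at -0.48 ± 0.40 and did not pass. After BLZ945 5 rose (6.82%; 5.17% higher, 1.65% lower): Tpi1 (2.08 ± 0.47), Pgk1 (1.84 ± 0.43), Pfkl (1.83 ± 0.38, adjusted p = 0.00805), Aldoa (1.69 ± 0.34) and Pgam1 (1.50 ± 0.37). Without recurrent mouse 67668 0 passed, and without the doubted libraries 3 passed. After IR+BLZ945 5 rose (3.69%; 1.78% higher, 1.92% lower): Gapdh (2.16 ± 0.50), Tpi1 (2.14 ± 0.47), Ldha (1.94 ± 0.44), Pgam1 (1.51 ± 0.35) and Aldoa (1.27 ± 0.32), with Pfkp at -1.16 ± 0.35 (adjusted p = 0.0722). Pfkp was called lower there by DESeq2 (-1.25), with RLE size factors (-1.25) and without the doubted libraries (-1.16). Without 5-day mouse 65696 or 67537 or recurrent 67543 0 passed, and without 67169 2 passed.

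Against vehicle, recurrent MG differed in 1 member. Pfkp was higher after BLZ945 (2.65 ± 0.65, adjusted p = 0.0268 by edgeR, 3.53% of genes; 2.97% higher, 0.557% lower), with both recurrent libraries above all 4 vehicle ones. Without vehicle mouse 41 or recurrent mouse 70696 it did not pass. After IR (4.33%; 4.2% higher, 0.138% lower) and IR+BLZ945 (4.82%; 2.04% higher, 2.78% lower) 0 passed by edgeR and by DESeq2, with 0 and 2 at an unadjusted p under 0.05. In recurrent BMDM 0 passed against vehicle after BLZ945 (0%), IR (1.87%; 0.844% higher, 1.02% lower) and IR+BLZ945 (0.0275%), with 9, 7 and 8 members at an unadjusted p under 0.05. Their medians were 1.30, 1.10 and 1.25, against 0.02, 0.02 and 0.03 over all genes. DESeq2 called 1, 5 and 4 higher, and without the doubted libraries 2 passed after IR, as did 3 in 1 fit over all libraries. The comparisons with vehicle share the same 4 vehicle mice.

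No member passed the test of a different response in MG and BMDM, in any of the 6 treatments (1.65%, 0.0755%, 0.358%, 0%, 0.0189% and 0% of genes, in the order 5-day BLZ945, IR and IR+BLZ945, then recurrence after each). At an unadjusted p under 0.05 there were 2, 1, 1, 1, 5 and 2 members. With the mouse as a block, which pairs both populations, there were 4, 3, 5, 2, 9 and 5, and again 0 passed. In the fit without the block, the smallest adjusted p was that of Pfkp at 5 days of BLZ945 (-2.25 ± 0.66, adjusted p = 0.0697 by edgeR), which DESeq2 called. It also passed without the doubted libraries, and 1 member passed without mouse 65967 or 65975.

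A property of the libraries moved with these levels. Lars2, a mitochondrial leucyl-tRNA synthetase gene, ran from 5.09 to 8.54 log2 CPM in MG at 5 days and from 11.6 to 15.2 in recurrence, and from 1.90 to 9.70 and 11.43 to 12.98 in BMDM. Malat1, a nuclear noncoding RNA, ran the other way, from 10.6 to 12.4 and 7.88 to 10.3 in MG. Over the 23 MG libraries the Pearson correlation with Lars2 was 0.87 for Gapdh, 0.86 for Ldha, 0.84 for Tpi1, 0.68 for Pfkp and -0.01 for Hk2. Over the 23 BMDM libraries it was 0.93 for Gapdh, 0.91 for Ldha, 0.90 for Slc2a1, 0.38 for Pfkl and -0.19 for Pfkp. Lars2 also spread within a stage, from 6.15 to 13.87 in vehicle MG and from 2.99 to 7.76 in vehicle BMDM. The correlations run over libraries within and between stages, so they are descriptions.

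**Figure D4:**
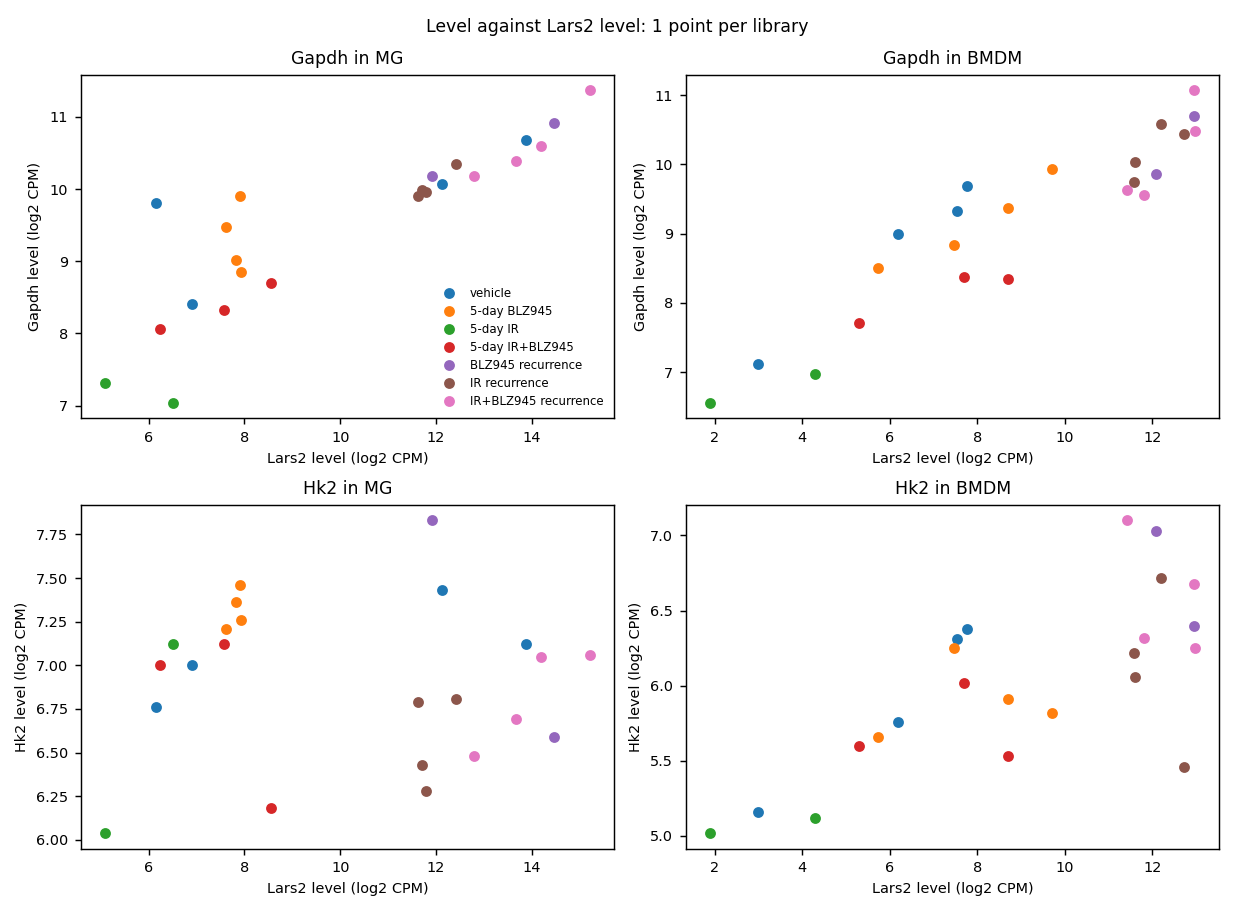
Level of Gapdh (top) and Hk2 (bottom) against the level of Lars2 (both log2 CPM) in MG (left) and BMDM (right); points are libraries, coloured by stage. Gapdh climbs with Lars2 in both populations, and Hk2 does not in MG.

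With the Malat1 minus Lars2 level as a term in the fit, the calls between stages mostly ended. Of all 59 values that had passed in any comparison, 12 still passed, 44 did not and 3 changed sign. In MG at 5 days of IR 0 members passed in place of 5, with Gapdh at -1.78 and Ldha at -1.81. For recurrence against 5 days, Pfkp after BLZ945 in MG (3.96) and Pfkl after BLZ945 in BMDM (2.41) were the only values that passed. Because this level itself changes with the stage, the stage and the library property cannot be told apart here. Between MG and BMDM, the Pfkp difference with the term was -3.14 in vehicle and -5.36, -5.45 and -4.37 at 5 days of BLZ945, IR and IR+BLZ945, all of which passed. Hk2 stood at 1.39, 1.51 and 1.08 at 5 days and passed, while in vehicle it was at 1.0 and did not. Gapdh in vehicle moved from 0.90 to -0.24, and passed in neither fit.

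**Figure D5:**
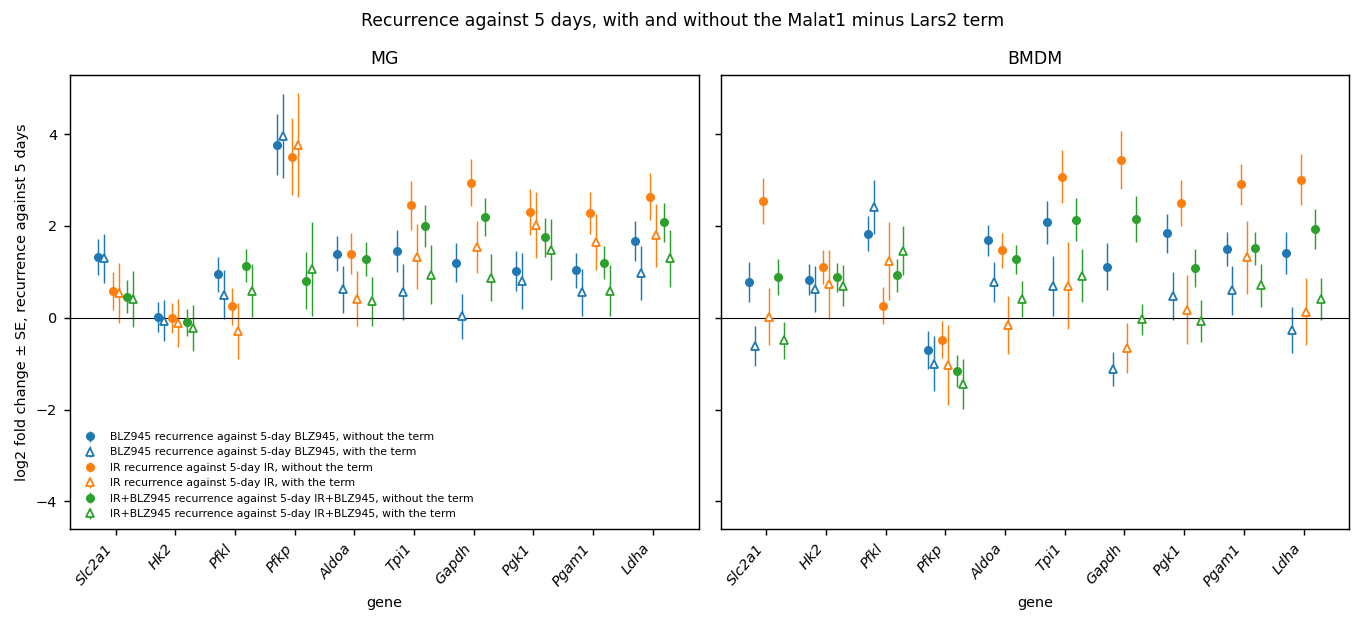
Log2 fold change ± SE of recurrence against 5 days for the 10 genes, with and without the Malat1 minus Lars2 term. Pfkp in MG after BLZ945 is at 3.77 without and 3.96 with the term, and Gapdh in BMDM after IR moves from 3.43 to -0.66.

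Markers of glioma and precursor cells moved with recurrence too. Their summed level over 8 genes was 3.59 to 4.41 in MG at 5 days of IR and 8.57 to 9.64 in recurrence after IR, and in BMDM -0.18 to 4.41 and 7.16 to 8.38. Against 5 days, 7, 5 and 5 of 8 were higher in MG after BLZ945, IR and IR+BLZ945, and 4, 4 and 5 in BMDM. Of all genes 6.32%, 8.13% and 11.5% were higher in MG, and 5.17%, 7.06% and 1.78% in BMDM. Their part in the results on the glycolysis genes was not tested.

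Other genes of the pathway changed in part. Of 15 further glycolysis genes, 2 were lower in MG at 5 days of IR (1.77% of all genes were lower): Gpi1 (-2.06 ± 0.39, adjusted p = 0.00708), the isomerase after hexokinase, and Pkm2 (-2.20 ± 0.46, adjusted p = 0.0147), the pyruvate kinase. In recurrence against 5 days of IR, where 8.13% of all genes rose in MG and 7.06% in BMDM, 3 rose and 0 fell in MG, with Gpi1 at 2.61 ± 0.41 and Pkm2 at 2.33 ± 0.46, and 2 rose and 1 fell in BMDM, with Gpi1 at 2.55 ± 0.42 and the aldolase Aldoc at -2.25 ± 0.60. Of 7 pentose phosphate genes 5 rose in MG and 4 in BMDM after IR, with Taldo1 at 1.32 ± 0.29 in MG and Pgd at 2.83 ± 0.51 in BMDM. Of 12 genes of pyruvate and lactate handling 0 rose in MG and 3 in BMDM, among them the lactate exporter Slc16a3 (3.23 ± 0.78, adjusted p = 0.0112). All are edgeR values.

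Of 16 genes known to rise under low oxygen and outside glycolysis, 3 were lower in MG at 5 days of IR (1.77% of all genes were lower): Adm (-5.38 ± 1.16, adjusted p = 0.0163), P4ha2 (-5.67 ± 1.31) and Ndrg1 (-4.36 ± 1.14). In recurrence 7, 4 and 6 of 16 rose in MG after BLZ945, IR and IR+BLZ945, with Adm at 6.15 ± 0.88, 6.60 ± 1.21 and 7.56 ± 1.11. The shares of all genes that rose were 6.32%, 8.13% and 11.5%. In BMDM 4, 1 and 4 rose, where 5.17%, 7.06% and 1.78% of all genes rose, so that the 1 of 16 after IR was near the background. Among them was the mitophagy gene Bnip3 at 3.06 ± 0.62 after BLZ945 and 2.88 ± 0.63 after IR+BLZ945. Between populations in vehicle, Ldhb (1.89 ± 0.39, adjusted p = 0.0009) and Pdk1 (1.38 ± 0.27, adjusted p = 0.000348), a kinase that inhibits pyruvate dehydrogenase, were higher in MG by edgeR. There 3.84% of all genes were higher and 5.3% lower. Both belong to the 12 genes of pyruvate and lactate handling, whose mean level was 5.51 in vehicle MG and 4.94 in vehicle BMDM. The other genes of that list are not described for this comparison.

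Most members moved together across libraries, with Hk2 apart in MG and Pfkp apart in BMDM. Over 45 pairs the Pearson correlation across the 23 MG libraries ran from -0.01 to 0.98 with a median of 0.73, and across the 23 BMDM libraries from -0.30 to 0.96 with a median of 0.73. In MG the closest pair was Tpi1 and Ldha (0.98), and Hk2 correlated with Ldha at -0.01, while Pfkp correlated with Ldha at 0.78. In BMDM Hk2 correlated with Ldha at 0.73, while Pfkp correlated with Pfkl at -0.30 and with Tpi1 at -0.28. Other genes were ranked by likeness to the mean of the members. Predicted genes, clone names, pseudogenes, ribosomal protein genes and genes of the mitochondrial genome were left out of this ranking. Among the genes ranked, the closest were Pkm2 (0.95), Prelid1 (0.95), Gpi1 (0.94), Grhpr (0.94) and Bola3 (0.93) in MG. In BMDM they were Gpi1 (0.97), Pkm2 (0.96), Mif (0.93), Timm8a1 (0.92) and Atp5a1 (0.92). These are descriptions over libraries that share stages and whose Lars2 level differed between and within stages.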

How the data were processed

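RNA of 46 sorted populations from 23 mice was analysed as raw counts per gene symbol, whole numbers deposited by the authors without normalization. The tools named are STAR 2.5.0e, CASAVA 1.8, DESeq2 and HTSeq with build mm10, per the submitters' processing notes. No source used here gives the annotation or strand setting, which leaves reads of overlapping genes (Pfkp with Pitrm1, Aldoa with Fam57b, Tpi1 with Spsb2) and of processed pseudogenes (Gapdh, Aldoa, Pgk1, Pgam1, Ldha) uncertain. All 46 columns were used, and replicates are separate mice. No pair of replicates was a duplicate (chi-square per degree of freedom at least 10.1).

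The quasi-likelihood test of edgeR 4.0.16 (R 4.3.3; limma 3.58.1) was run after TMM scaling with robust estimation of the spread and filterByExpr (minimum count 10, minimum total 15). There was 1 fit for MG (14534 genes), 1 for BMDM (14568) and 1 over both (15901), with 31 comparisons in all. P-values were adjusted over all genes tested, and a gene passed at 0.05. Levels are log2 CPM with a prior count of 1. The tests were checked on simulated data. Other settings were DESeq2 1.42.0, RLE size factors, no filter, 1 fit over all libraries, a Malat1 minus Lars2 term, mouse number styles, leaving out doubted libraries or each library, and the mouse as a replicate block. In the fit over both populations, each mouse was left out in place of each library. Both populations carry the number of the mouse they came from, per the labels, which pairs them. Per length levels use GENCODE vM21 transcript lengths on GRCm38, and all 10 members matched the RefSeq promoters. Reads were amplified and carry no molecular identifiers, so counts are not independent molecules.

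Every member that passed is followed, and of each other list up to 4 genes that passed with the smallest p, or up to 2 where none passed, could be named in a comparison that is described. The members, lists and settings were chosen with earlier results of these data known, and they give no independent support to a pattern seen there.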

Additional observations from a re-analysis of the deposited data

Results flagged for a closer look

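Each member was checked in each group of 4 libraries, which made 80 sets. In 7 of them 1 library lay far from the other 3 by Dixon's criterion for the gap over the range. Chance gives about 1 in 20 for independent sets, but these sets share libraries and the members move together. Of the 7, 6 were vehicle values of mouse 65967, low in both populations. In MG its Pgk1 stood at 5.77 log2 CPM against 7.40 to 7.51 in the others, Pgam1 at 6.05 against 7.17 to 7.37 and Ldha at 9.28 against 10.97 to 11.22. In BMDM its Tpi1 stood at 7.30 against 8.57 to 8.73, Pgam1 at 5.32 against 6.61 to 6.79 and Ldha at 8.52 against 10.30 to 10.61. The other was Ldha in MG of recurrence after IR, where mouse 68343 stood highest at 11.42 against 10.79 to 10.89. Vehicle libraries enter every comparison with vehicle, so its low values bear on each of them.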

How the results depend on the processing

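Values below are counts of the 10 members that passed. DESeq2 kept 23 of 31 counts within 1.5 times, and gave 7 for MG recurrence against 5 days of BLZ945, and in BMDM against vehicle 1, 6 and 1 at 5 days of BLZ945, IR and IR+BLZ945 and 1, 5 and 4 in recurrence after them. It gave 1 for the different response at 5 days of BLZ945. RLE size factors kept 30 of 31 and gave 1 for BMDM at 5 days of BLZ945, and no filter kept all 31. One fit over all libraries gave 3 for BMDM at 5 days of IR and 3 for recurrence after IR against vehicle. Without the doubted libraries the count was 3 and 1 in MG at 5 days of IR and IR+BLZ945, 1 in BMDM at 5 days of IR+BLZ945, 2 in BMDM recurrence after IR, 3 in BMDM recurrence against 5 days of BLZ945 and 1 for the response at 5 days of BLZ945. With the Malat1 minus Lars2 term it was 0 in MG at 5 days of IR, at 5 days of IR+BLZ945 and in recurrence after BLZ945 against vehicle, 1, 0 and 0 for MG recurrence against 5 days, 0 and 1 in BMDM at 5 days of IR and IR+BLZ945, 1, 0 and 0 for BMDM recurrence against 5 days, and 1 for MG against BMDM in vehicle. That term turned Gapdh to -0.66 and Aldoa to -0.16 in BMDM recurrence against 5 days of IR, and Gapdh to -0.03 against 5 days of IR+BLZ945. Among mice with 5-digit numbers it was 1 in MG at 5 days of IR, 0 in MG at 5 days of IR+BLZ945, in MG recurrence after BLZ945 and in BMDM at 5 days of IR, and 1 for MG against BMDM in vehicle and at 5 days of BLZ945. Among 2- or 3-digit numbers it was 9 in MG at 5 days of BLZ945. The cause of these moves was not tested.

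With the mouse as a replicate block, which pairs both populations, 8 members passed between MG and BMDM in vehicle in place of 4, and no other count moved by over 1.5 times.

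Leaving out 1 library at a time gave, in MG against vehicle, 0 to 4 at 5 days of BLZ945, 0 to 7 at 5 days of IR, 0 to 5 at 5 days of IR+BLZ945 and 0 to 1 in recurrence after BLZ945. It gave 1 to 9, 1 to 7 and 5 to 7 for MG recurrence against 5 days of BLZ945, IR and IR+BLZ945. BMDM had 0 to 1 and 0 to 5 at 5 days of BLZ945 and IR, and 0 to 5, 4 to 8 and 0 to 5 for recurrence against 5 days. Between MG and BMDM each mouse was left out with both of its libraries. That gave 2 in vehicle, 2 to 4, 1 to 2 and 1 to 2 at 5 days, and 0 to 1 for the response at 5 days of BLZ945. The other counts did not move. Groups of 2 to 4 mice limit each of these results.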
